A study of Mus musculus with 3 samples.

Results

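Costimulatory and inhibitory surface receptors of T cells, with their ligands and adaptors, were read on 3 arrays of cultured mouse CD4+ T cells. The 37 genes were chosen by name and role: the CD28 and B7 families, the SLAM family with its SH2 adaptors, the leukocyte immunoglobulin-like receptors, the nectin-binding receptors and other surface receptors of this kind. All 37 were measured, of 19935 genes with a probe set that the platform annotation ties to exactly 1 gene symbol, and Cd244 was found under its current symbol Cd244a. The cells came from wild-type C57BL/6 mice at 8 weeks of age, as naive CD4+ T cells that had not yet met antigen. They were cultured in medium with vehicle, in IL-21, or in IL-6 combined with TGFb1, and each condition was measured on 1 array. IL-21 and IL-6 are cytokines that signal mainly through the transcription factor STAT3, and TGFb1 signals through SMAD proteins. The labels give no culture time, no cytokine dose and no statement on stimulation through the T cell receptor. The difference between the treated cultures joins the exchange of IL-21 for IL-6 with the addition of TGFb1, and these cannot be told apart.

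T cells respond to antigen through their receptor, and costimulatory receptors such as CD28 and ICOS add to that signal when they meet B7 family ligands on another cell. Inhibitory receptors such as CTLA-4, PD-1, BTLA, LAG-3 and TIGIT dampen it, in part by recruiting phosphatases to motifs in their cytoplasmic tails. SLAM family receptors bind mostly to themselves on neighbouring cells and signal through the small adaptor SAP, which helper T cells need for lasting contact with B cells. Many of these receptors appear on the surface only after activation, and activated T cells can also make B7 ligands themselves.

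The arrays gave 1 linear intensity per probe set, and a difference is log2(intensity + 1) of one array minus that of another. With 1 array in each group there was no replicate and no test, so every difference below compares 2 arrays and carries no error of its own. As a scale, 474 genes with 2 bright probe sets had a median gap between those probe sets of 0.07 in IL-21 minus medium, and the 95th percentile of that gap was 0.41. It was 0.37 for IL-6 with TGFb1 minus medium and 0.35 between the treated arrays. This scale covers disagreement of probe sets on the same arrays and leaves out the spread between cultures. A gene was compared if its intensity reached 187, the median of all values, on at least 1 array. That held for 11003 genes and for 31 of the 37 members. The compared members below the minimum on at least 1 array were 5: Cd80, Cd86, Pdcd1lg2, Cd160 and Lilr4b. Of these, Cd86 and Cd160 reached it only on the array where they were brightest, so they had to show some difference. The others reached it on 2 arrays: Lilr4b on the treated arrays, Cd80 and Pdcd1lg2 on those of medium and IL-21. The side of their difference from the array below the minimum was thereby set as well, and only its size was free. The arrays were those of CD4+ T cells by their defining markers, since all 6 measured of 8 listed markers were above the minimum on every array. Cd4 had intensities of 6858 in medium, 6765 in IL-21 and 6077 in IL-6 with TGFb1, and Cd3e had 6294, 6434 and 6069 in the same order. Il7r, which encodes the IL-7 receptor of naive and memory T cells, was not as level: it read 989, 1481 and 1827, with differences from medium of 0.58 and 0.89. Of the CD8 T cell markers, Cd8b1 was above the minimum on every array, at 810, 731 and 616, with differences of -0.15 in IL-21 and -0.39 in IL-6 with TGFb1, and Cd8a was below it at 163, 145 and 155. Their summed intensity was 973, 876 and 772, and the part of CD8 T cells in the member values was not tested.

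Each treated culture had a small number of members at least 2-fold from medium. In IL-21 the paired receptor genes Lilr4b and Lilrb4a were at least 2-fold higher and the B7 ligand gene Cd80 and the surface molecule gene Cd83 were at least 2-fold lower. In IL-6 with TGFb1 these 4 genes were also past 2-fold on the same sides, and the SLAM receptor gene Slamf6 was at least 2-fold lower. Both comparisons subtract the same medium array, so the shared sides are not separate results. The brightness filter set the side of Lilr4b in both and that of Cd80 in IL-6 with TGFb1. Between the treated arrays Slamf6 was at least 2-fold higher in IL-21, and Cd86, the other classical B7 ligand gene, was at least 2-fold lower. Of the 31 compared members, 19 stayed within 1.5-fold in all 3 comparisons, among them Ctla4, Icos, Pdcd1 and Tigit. Of all compared genes, 95.3% did so.

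In counts, 2 of the 31 compared members were at least 2-fold higher in IL-21 than in medium, where 0.482% of all compared genes were, and 2 were at least 2-fold lower, where 0.109% were. In IL-6 with TGFb1, 2 members were at least 2-fold higher beside 0.673% of compared genes, and 3 were lower beside 0.364%. The higher members were Lilrb4a and Lilr4b in both comparisons. Their probe sets may read each other's RNA, so each count of 2 may hold 1 signal. Between the treated arrays, 1 member was at least 2-fold higher in IL-21 beside 0.273% of compared genes, and 1 was lower beside 0.191%. The lower member, Cd86, was compared through the IL-6 with TGFb1 array alone, which set its side. At a 1.5-fold limit the counts in IL-21 were 4 higher and 2 lower, against 2.04% and 0.5% of all compared genes. For IL-6 with TGFb1 they were 3 higher and 5 lower, against 2.61% and 1%. The treated arrays set against each other gave 6 higher and 1 lower in IL-21, against 0.927% and 0.527%. The lower one was again Cd86, and the higher ones include Cd160 and Pdcd1lg2, both below the minimum in IL-6 with TGFb1. Both comparisons with medium subtract the same array, so their members are given side by side and no overlap is drawn from them.

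**Figure D1:**
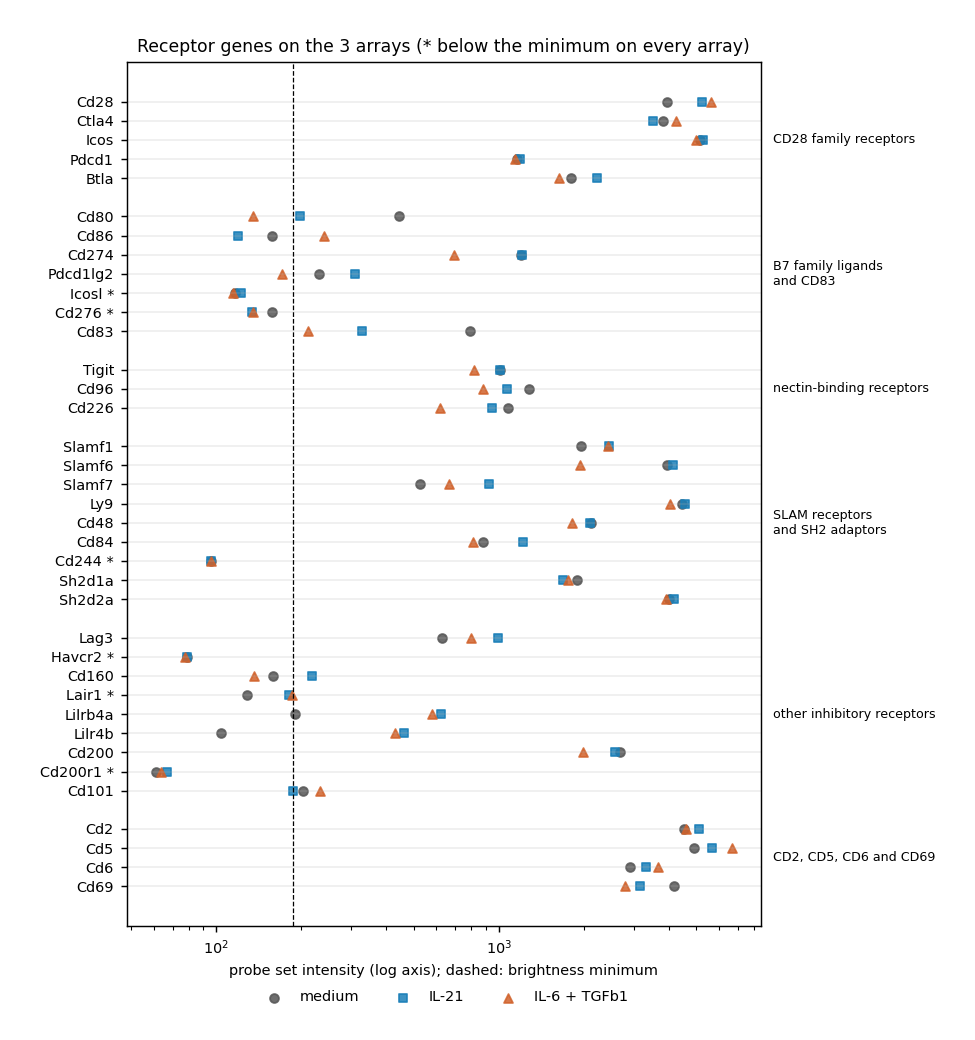
Probe set intensity (horizontal log axis) of the 37 members on the medium, IL-21 and IL-6 + TGFb1 arrays, 1 point per array, arranged by role; the dashed line is the brightness minimum of 187 and an asterisk marks the 6 members below it on every array. Positions of different genes are not comparable, because probe sets differ in brightness; the points to read are the gaps within a row, widest for Lilr4b, Cd83, Cd80 and Lilrb4a.

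**Figure D2:**
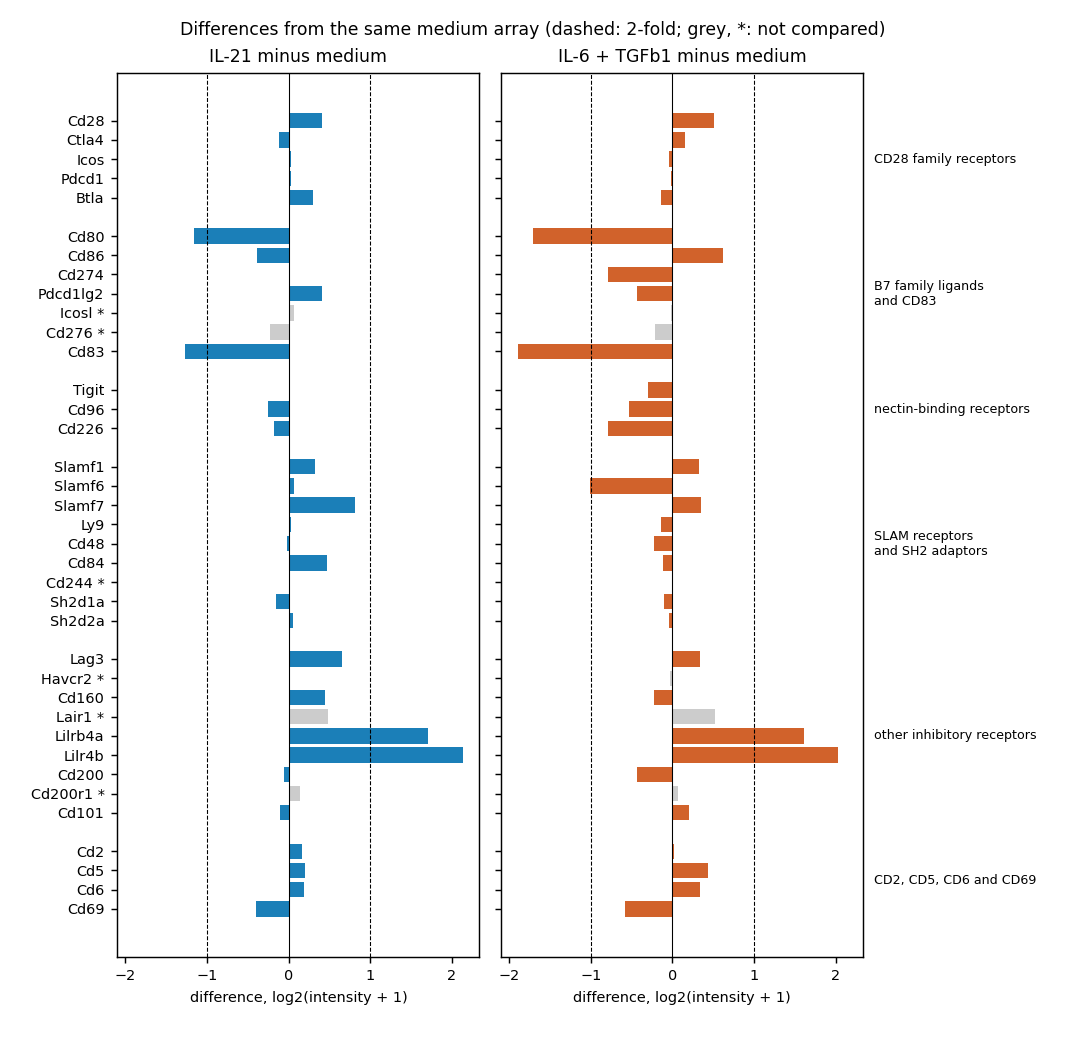
Difference from medium (horizontal axis, log2(intensity + 1)) of each member in IL-21, left, and in IL-6 + TGFb1, right; dashed lines mark 2-fold and grey bars are the 6 members that were not compared. Both panels subtract the same medium array. Lilrb4a and Lilr4b pass 2-fold on the higher side and Cd80 and Cd83 on the lower side in both, and Slamf6 (-1.02) does so on the right alone.

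The receptors of the CD28 family were within 1.5-fold of medium in both treated cultures. Cd28, the main costimulatory receptor of naive T cells, had an intensity of 3945 in medium, 5248 in IL-21 and 5630 in IL-6 with TGFb1. Its differences from medium were 0.41 and 0.51, the highest of this family, and the treated arrays differed by -0.10. Both treated arrays were thus above medium for Cd28, by about the 95th percentile of the probe set gap in IL-21 and by more than it in IL-6 with TGFb1. Ctla4, which encodes the receptor that competes with CD28 for CD80 and CD86, had intensities of 3798, 3513 and 4240, with differences of -0.11 and 0.16 from medium. Icos, the inducible costimulator of follicular helper cells, differed by 0.03 in IL-21 and -0.04 in IL-6 with TGFb1. Pdcd1, which encodes PD-1, differed by 0.03 and -0.02. The intensities behind these last values were 5154, 5266 and 5001 for Icos and 1162, 1190 and 1144 for Pdcd1, so that neither array of treated cells stood apart from medium. Ctla4, Icos and Pdcd1 are induced by activation in textbook accounts and were above the brightness minimum on the medium array. The labels do not say whether these cells were stimulated, and their activation was not tested. Btla, an inhibitory receptor that binds the TNF receptor family member HVEM, had intensities of 1798 in medium, 2223 in IL-21 and 1626 in IL-6 with TGFb1. It lay above medium in IL-21 (0.31) and below it in IL-6 with TGFb1 (-0.14), and the gap of 0.45 between the treated arrays was the widest of the family.

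The compared B7 ligand genes and Cd83 lay farther from medium than the CD28 family receptors. Their median difference regardless of sign was 0.42 in IL-21 and 0.79 in IL-6 with TGFb1, against 0.11 and 0.14 for the receptors, and 3 of these 5 genes were below the brightness minimum on at least 1 array. Cd80, a ligand of both CD28 and CTLA-4, had an intensity of 444 in medium, 198 in IL-21 and 135 in IL-6 with TGFb1. The medium array was the highest, and the last value was below the brightness minimum. Cd80 was 2.23-fold lower in IL-21 (-1.16) and 3.28-fold lower in IL-6 with TGFb1 (-1.71), ranks 10 and 15 from the bottom of the 11003 compared genes. It was the only member with a further probe set. That probe set read 190, 139 and 101 and gave differences of -0.45 and -0.91, on the same side as the brighter one and under 2-fold. With the mean of both, Cd80 stood at -0.81 in IL-21 and -1.31 in IL-6 with TGFb1, so its 2-fold difference in IL-21 rested on the brighter probe set. Cd83, a surface molecule of activated lymphocytes and mature dendritic cells, had intensities of 788, 327 and 211. It was 2.40-fold lower in IL-21 (-1.27) and 3.72-fold lower in IL-6 with TGFb1 (-1.90), at ranks 5 and 11 from the bottom, and all 3 arrays were above the minimum. Both genes were highest in medium, intermediate in IL-21 and lowest in IL-6 with TGFb1, and between the treated arrays they were higher in IL-21 by 0.55 (Cd80) and 0.63 (Cd83).

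Cd86, the other ligand shared by CD28 and CTLA-4, had another order. Its intensity was 157 in medium, 120 in IL-21 and 241 in IL-6 with TGFb1, and the last array alone was above the minimum. It differed from medium by -0.39 in IL-21 and 0.61 in IL-6 with TGFb1. Between the treated arrays it was 2.01-fold lower in IL-21 (-1.004), rank 21 from the bottom. That value lay at the 2-fold limit and was -0.92 with a pseudocount of 16 in place of 1.

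The PD-1 ligand genes are neighbours on chromosome 19 and were both lower in IL-6 with TGFb1 than in IL-21. Cd274, which encodes PD-L1, had an intensity of 1200 in medium, 1210 in IL-21 and 696 in IL-6 with TGFb1, so the first arrays were alike and the last was low. Its differences from medium were 0.01 in IL-21 and -0.79 in IL-6 with TGFb1, a 1.72-fold lower value. Pdcd1lg2, which encodes PD-L2, had intensities of 231, 309 and 170, with differences of 0.42 and -0.44. It was brightest in IL-21 and below the minimum in IL-6 with TGFb1. The brightness filter thereby set its lower side on that array, and only the size was free. Between the treated arrays Pdcd1lg2 was higher in IL-21 by 0.85 and Cd274 by 0.80, ranks 44 and 57 from the top. Icosl, the ligand of ICOS, and Cd276, which encodes B7-H3, were below the minimum on every array, at 115 to 122 and at 134 to 157.

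Ligand genes of this family are known best from antigen-presenting cells, and markers of such cells were read beside them. Of 8 listed macrophage or monocyte markers 7 were measured, and their summed intensity was 735 in medium, 749 in IL-21 and 737 in IL-6 with TGFb1. No marker of that list was above the minimum in medium or IL-21, and only Cd68 was in IL-6 with TGFb1, at 190. The 8 dendritic cell markers summed to 2253, 2195 and 2002, and 3 of them passed the minimum on some array. These were Cd74 (1230, 1071 and 961), H2-Ab1 (317, 478 and 358) and Zbtb46 (212, 181 and 191), whereas Itgax, Flt3, Xcr1, Clec9a and Siglech were below it throughout. The 8 measured of 9 B cell markers summed to 1100, 1132 and 1127, with Cd79b alone above the minimum (365, 371 and 380). No NK cell marker of 6 and no granulocyte or mast cell marker of 6 reached it. The part of Cd74 and H2-Ab1 bearing cells in the ligand values was not tested, and in such bulk RNA fewer cells of a type and less RNA per cell cannot be told apart.

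The nectin-binding receptors, which share ligands of the nectin family, lay lowest in IL-6 with TGFb1. Cd226, the activating receptor DNAM-1, had an intensity of 1074 in medium, 946 in IL-21 and 619 in IL-6 with TGFb1. It differed from medium by -0.18 and -0.79, so that it was 1.73-fold lower in the latter. Cd96, a receptor with activating and inhibitory roles in different accounts, had intensities of 1274, 1066 and 878 and differences of -0.26 and -0.54. Tigit, the inhibitory receptor of the group, had intensities of 1006, 1011 and 820 and differences of 0.01 and -0.29. In IL-6 with TGFb1 the activating receptor gene was therefore the farthest from medium and the inhibitory one the nearest. All 3 were higher in IL-21 than in IL-6 with TGFb1, by 0.61 for Cd226, 0.30 for Tigit and 0.28 for Cd96.

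In the SLAM family, Slamf6 lay farthest from medium in IL-6 with TGFb1. Slamf6 encodes Ly108, a self-binding receptor of T and B cells, and its intensity was 3924 in medium, 4122 in IL-21 and 1940 in IL-6 with TGFb1. The medium and IL-21 arrays were alike and the last was low. The difference from medium was 0.07 in IL-21 and -1.02 in IL-6 with TGFb1, the latter 2.02-fold lower and rank 39 from the bottom. It was -0.99 with the arrays centred on their own medians. In IL-21 it was 2.12-fold higher than in IL-6 with TGFb1 (1.09), rank 27 from the top, and it was the only member past 2-fold in that direction. Slamf7, a receptor of cytotoxic and plasma cells, had intensities of 524, 920 and 667. It was 1.75-fold higher than medium in IL-21 (0.81) and 1.27-fold higher in IL-6 with TGFb1 (0.35), with both treated arrays above medium.

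The other SLAM receptors were within 1.5-fold of medium. Cd84 had intensities of 877, 1215 and 811, with differences of 0.47 in IL-21 and -0.11 in IL-6 with TGFb1. Slamf1, which encodes the founding receptor of the family, had 1956, 2456 and 2444. Its differences of 0.33 and 0.32 were nearly equal and below the 95th percentile of the probe set gap. Ly9 (0.03 and -0.14) and Cd48 (-0.01 and -0.22), a ligand of CD244 and CD2, differed by less than the 95th percentile of the probe set gap. Cd244, a receptor best known from NK cells, had exactly the same value of 95.8 on all 3 arrays and was below the minimum. The 7 receptor genes of the family form a cluster on chromosome 1, where they are 7 of 8 consecutive protein-coding genes in RefSeq, in the order Cd244, Ly9, Slamf7, Cd48, Slamf1, Cd84 and Slamf6. Slamf6 lies at the end of that row next to Cd84, and the other compared receptors of the cluster had differences between -0.22 (Cd48) and 0.35 (Slamf7) in IL-6 with TGFb1. The adaptor genes were flat: Sh2d1a, which encodes SAP, differed by -0.16 and -0.11, and Sh2d2a, which encodes the T cell adaptor TSAd, by 0.06 and -0.04.

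The leukocyte immunoglobulin-like receptor genes had the highest differences of all members. Lilrb4a encodes an inhibitory receptor also called gp49B, and Lilr4b encodes its close relative gp49A, which lacks the inhibitory tail. Lilr4b had an intensity of 104 in medium, 461 in IL-21 and 428 in IL-6 with TGFb1. It was 4.40-fold higher in IL-21 (2.14), rank 6 from the top of the compared genes, and 4.09-fold higher in IL-6 with TGFb1 (2.03), rank 15. Lilrb4a had intensities of 190, 624 and 580. It was 3.28-fold higher in IL-21 (1.71, rank 11) and 3.05-fold higher in IL-6 with TGFb1 (1.61, rank 30). In both genes the treated arrays were close to each other, with differences of 0.11 and 0.10, and far above a medium value near or below the brightness minimum. The pair are neighbours on chromosome 10 and have near-identical sequences, so each probe set may read RNA of the other and their values are not independent. These genes are known from mast cells and myeloid cells as well as from activated T cells. Of 8 listed macrophage or monocyte markers only Cd68 reached the minimum, on 1 array, as given above. The 6 granulocyte or mast cell markers were all below it and summed to 502, 510 and 541. Among them, Cpa3 read 67.0, 74.9 and 67.0 and Fcer1a 54.1, 54.5 and 54.1. Ly6g read 78.7, 87.7 and 121.0, with differences of 0.15 and 0.61 on the same side as the receptor pair. S100a8, S100a9 and Mpo were at or below their medium values on both treated arrays. The part of such cells in the Lilrb4a and Lilr4b values was not tested.

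The remaining inhibitory receptors were within 2-fold of medium. Lag3, which binds class II MHC molecules and is expressed on activated and regulatory T cells, had intensities of 630, 991 and 794. It was 1.57-fold higher in IL-21 (0.65) and 1.26-fold higher in IL-6 with TGFb1 (0.33), and both treated arrays exceeded medium. Cd160, a receptor for HVEM like BTLA, had intensities of 159, 217 and 136, of which the IL-21 value alone was above the minimum. Its differences were 0.45 and -0.23, and it was compared through the IL-21 array alone, which bears on their signs. Cd200, which encodes a ligand that dampens myeloid cells, had intensities of 2684, 2576 and 1990, with differences of -0.06 and -0.43. Cd101 stayed near the minimum at 202, 187 and 232 (-0.11 and 0.20). Below the minimum on every array were Lair1, a collagen receptor (129, 181 and 185), Havcr2, which encodes TIM-3 (79.0, 79.0 and 77.4), and Cd200r1, the receptor of CD200 (60.9, 67.1 and 63.9).

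CD2, CD5 and CD6 tune T cell adhesion and receptor signalling, and their genes were slightly above medium in both treated cultures. Cd5, whose level follows the strength of T cell receptor signals, had intensities of 4926 in medium, 5684 in IL-21 and 6673 in IL-6 with TGFb1, with differences of 0.21 and 0.44. Its relative and neighbour on chromosome 19, Cd6, had 2906, 3312 and 3659, with differences of 0.19 and 0.33. Both were highest in IL-6 with TGFb1, and they were among the 7 compared members that were lower in IL-21 when the treated arrays were set against each other. Cd2 differed from medium by 0.17 and 0.02. Cd69, an early activation antigen that holds lymphocytes in tissue, had intensities of 4170, 3154 and 2789. It differed by -0.40 and -0.58, and its order of medium above IL-21 above IL-6 with TGFb1 was also that of Cd48, Cd80, Cd83, Cd96, Cd200 and Cd226. For Cd48 and Cd200 the difference of IL-21 from medium was small (-0.01 and -0.06). With the arrays centred on their medians its sign changed (0.05 and 0.01).

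Set directly against each other, the treated arrays showed most members higher in IL-21. Of the 31 compared members 24 were above 0 and 7 below, while 44.7% of all compared genes were above 0 and 42.3% below. The members' median difference was 0.18, and that of all compared genes was 0.00. With the arrays centred on their own medians the members were again 24 and 7, but 70.9% of all compared genes were then above 0, and the medians were 0.22 and 0.04. After quantile normalization 23 members were above 0 and 8 below, beside 42.5% and 57.4% of all compared genes. Among the 26 members above the minimum on all 3 arrays, 20 were higher in IL-21 and 6 lower, beside 46.3% and 40.3% of the 10262 genes that met the same condition. The 7 lower members were Cd86, Cd101, Ctla4, Cd5, Cd6, Cd28 and Sh2d1a. Those with the largest differences on the higher side, after Slamf6, were the ligand genes Pdcd1lg2 and Cd274, then Cd160 (0.67), Cd83, Cd226, Cd84 (0.58) and Cd80.

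**Figure D3:**
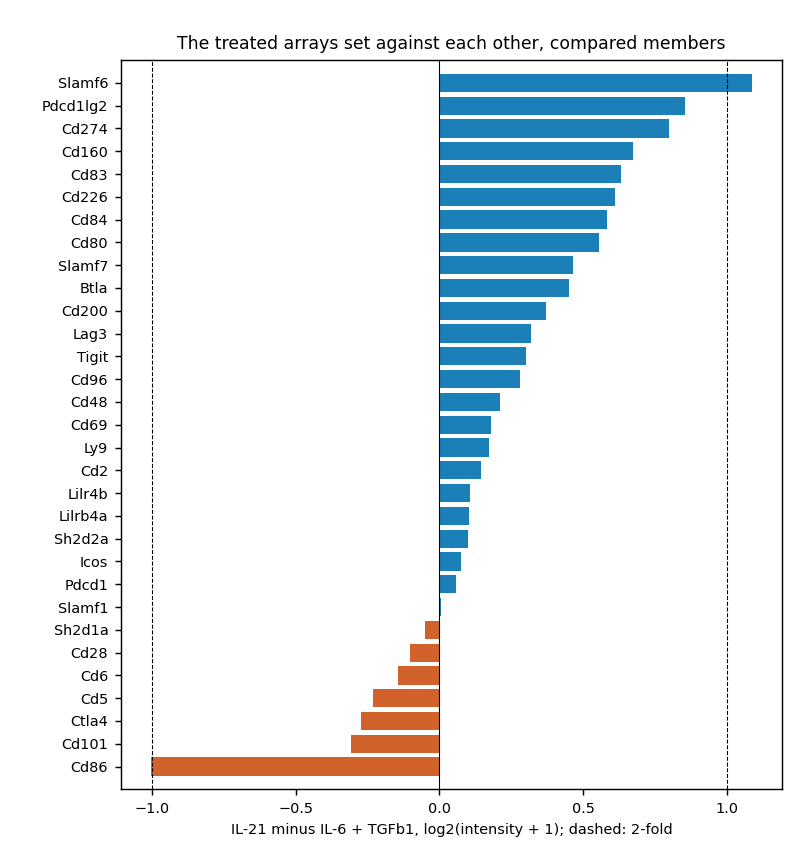
Difference IL-21 minus IL-6 + TGFb1 (horizontal axis, log2(intensity + 1)) of the 31 compared members, ordered by size, with dashed lines at 2-fold. Blue bars are the 24 members higher in IL-21 and orange bars the 7 lower ones; Slamf6 (1.09) and Cd86 (-1.004) are the ends of the range.

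Read across the 3 arrays, 18 of the 31 compared members were lowest in IL-6 with TGFb1, 9 in medium and 4 in IL-21. Of the 8429 compared genes without equal values, 23.5% were lowest in IL-6 with TGFb1, 54.9% in medium and 21.6% in IL-21. The highest array was IL-21 for 17 members, medium for 8 and IL-6 with TGFb1 for 6, beside 41.2%, 24.8% and 34% of those genes. Against medium, the median of the compared members was 0.03 in IL-21, where that of all compared genes was 0.04, and -0.11 in IL-6 with TGFb1, where it was 0.02. The latter median was -0.04 over all 37 members with no brightness filter, and the former was 0.10 with the arrays centred, beside 0.10 for all compared genes. In IL-21, 20 members were above medium and 11 below, beside 59.8% and 28.6% of all compared genes. Centring gave 22 and 9 beside 82.2% and 17.8%, and quantile normalization gave 17 and 14 beside 45.4% and 54.4%, so how the members sat beside all genes in IL-21 changed with the scaling. In IL-6 with TGFb1 the numbers were 12 and 19, beside 56.3% and 36.6%.

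**Figure D4:**
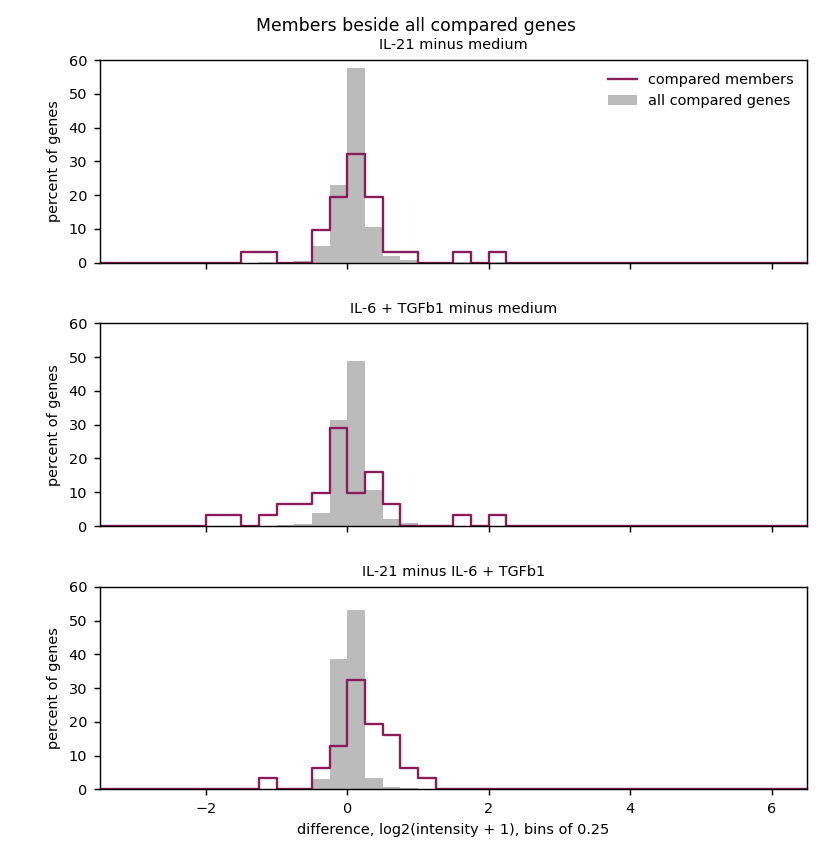
Share of genes (vertical axis, percent) by difference (horizontal axis, log2(intensity + 1), bins of 0.25) for the 11003 compared genes, grey bars, and the 31 compared members, purple line, in each of the 3 comparisons. The members' median difference regardless of sign was 0.21, 0.33 and 0.28 from the top panel down, against 0.10, 0.11 and 0.06 for all compared genes, and in the lowest panel their line is shifted to the higher side, with a median of 0.18 against 0.00.

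The promoter regions of the members past 2-fold are shown because these genes carry the differences described above. RefSeq promoter entries on GRCm38.p6 were matched for 23 members, of which Cd80, Lilr4b and Slamf6 were past 2-fold. The 250 bases before each start are given 5′ to 3′ on the plus strand, in lower case, with motif matches in capitals. The motifs searched on both strands were TTCNNNGAA for STAT proteins, TGANTCA for AP-1 and a kappa B motif, and no match overlapped another in these windows.
Cd80, chr16:38458683-38458932: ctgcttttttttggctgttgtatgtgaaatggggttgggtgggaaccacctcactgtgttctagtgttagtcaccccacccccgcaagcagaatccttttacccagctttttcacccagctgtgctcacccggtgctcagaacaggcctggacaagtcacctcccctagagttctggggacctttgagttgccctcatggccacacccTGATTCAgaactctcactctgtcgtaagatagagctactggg
Lilr4b, chr10:51480362-51480611: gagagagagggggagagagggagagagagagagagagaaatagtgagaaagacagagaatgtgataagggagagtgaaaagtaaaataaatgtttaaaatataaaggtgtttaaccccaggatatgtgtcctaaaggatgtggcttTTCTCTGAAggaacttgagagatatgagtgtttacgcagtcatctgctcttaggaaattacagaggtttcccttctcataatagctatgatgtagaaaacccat
Slamf6, chr1:171917212-171917461: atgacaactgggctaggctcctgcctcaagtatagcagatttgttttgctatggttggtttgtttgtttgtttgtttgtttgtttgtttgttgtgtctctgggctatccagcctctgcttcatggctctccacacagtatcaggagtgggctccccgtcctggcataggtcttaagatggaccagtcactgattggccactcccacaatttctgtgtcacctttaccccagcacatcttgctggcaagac

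The Lilr4b window held 1 STAT match, from 104 to 96 bases before the start, and the Cd80 window held 1 AP-1 match, from 42 to 36 bases before it. None of the searched letters were in the Slamf6 window. Over 32851 promoters of the same length, 7.02% held the STAT motif, 6.75% the AP-1 motif and 1.21% the kappa B motif. Among the 24 member promoters, of which Cd160 has more than 1, the STAT motif was in 3 (Cd96, Cd160 and Lilr4b) and the AP-1 motif in 5 (Cd80, Cd84, Cd244, Havcr2 and Slamf7). The kappa B motif was in 0. A match describes these letters alone.

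Partner genes of the receptors, listed for their known roles, were mostly close to medium. Of 14 ligands and counter-receptors 7 were compared, and none was past 2-fold in any comparison. Vsir, which encodes the inhibitory ligand and receptor VISTA, had intensities of 820, 1161 and 1390, with differences of 0.50 in IL-21 and 0.76 in IL-6 with TGFb1. Alcam, which encodes the ligand of CD6, had 742, 928 and 491, with differences of 0.32 and -0.59, so the ligand was lowest where Cd6 itself was highest. Pvr, the shared ligand of TIGIT, CD96 and CD226, was equal in medium and IL-21 at 1661 and read 1467 in IL-6 with TGFb1. Tnfrsf14, which encodes HVEM, the ligand of BTLA and CD160, differed by 0.11 and 0.04.

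Of 20 signalling partners of these receptors 16 were compared, and all 16 were within 1.5-fold in every comparison. They include the phosphatase genes Ptpn6 (0.00 in each) and Ptpn11 (0.01 and -0.14), whose products bind inhibitory tails, and Fyn, the kinase that SAP recruits (-0.06 and -0.29). Ptpn6 and Pik3r1 each had exactly the same value on all 3 arrays, at 2473 and 1693. Why these values were equal is not known. Cblb, a ubiquitin ligase that limits CD28-independent activation, had the lowest difference from medium in IL-6 with TGFb1, at -0.52 after -0.01 in IL-21. Of the 5 genes listed for CTLA-4 and CD28 traffic, Trat1, which encodes an adaptor that carries CTLA-4 to the surface, had intensities of 2803 in medium, 1560 in IL-21 and 665 in IL-6 with TGFb1. Its differences were -0.84 and -2.07, and it was the only partner past 2-fold. Lrba, which protects CTLA-4 from degradation, had intensities of 720, 942 and 1154, with differences of 0.39 and 0.68. Trat1 and Lrba lay on opposite sides of medium, but Lrba was named after its values were seen. The other listed traffic genes were close to medium: Def6 differed by 0.10 and 0.16, Ap1m1 by 0.00 and 0.09, and Ap2m1 by 0.06 and 0.07. Ctla4 itself was within 1.5-fold of medium.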

How the data were processed

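RNA of 3 cultures was measured on 1 array each. Per the labels' protocols, a company prepared the RNA, attached biotin with Affymetrix's WT kit and ran the hybridization. The deposited table holds intensities, as its values show, for 28815 probe sets per array, with medians of 191 (medium), 182 (IL-21) and 188 (IL-6 with TGFb1). The authors' steps of summary and normalization were not given in the sources used here. Per the submitters' processing notes the build is mm8, and no coordinates of it were used.

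Genes were named from the platform annotation, using the 21780 probe sets with 1 symbol; 1605 had several and 5430 had none listed. The probe set with the highest mean stood for a gene. Differences used log2(intensity + 1), and low genes are understated by that. All 37 members matched RefSeq (GRCm38.p6) by Entrez identifier. Fold limits were 2 and 1.5. By rule all members are accounted for, those past 2-fold in full; partner genes are given as counts, with those named beyond the 1 past 2-fold chosen after their values were seen. The calculation was tested on simulated data. Python 3.11.15, numpy 2.4.6 and pandas 2.3.3 were used. Protein motifs were planned and not searched here. Members and lists were chosen with earlier results of these data known. Alternatives were another pseudocount, raised low values, centring, quantile normalization, other brightness filters and the mean of probe sets. The number of arrays limits the precision.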

Additional observations from a re-analysis of the deposited data

How the results depend on the processing

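Of 555 member differences recomputed under another setting, 5 changed their side of 2-fold, and no difference past 2-fold changed sign. Among smaller differences 13 values, of 9 members, changed sign; their size was at most 0.06 in the reported setting and at most 0.09 after the change. Cd86 between the treated arrays fell short of 2-fold with a pseudocount of 16, with centring and with quantile normalization, and it was left out by the stricter brightness filter, so that the count of members at least 2-fold lower in IL-21 was 0 under each of these 4 settings instead of 1. With the mean of all probe sets, Cd80 fell short of 2-fold in IL-21 and the count of lower members was 1 instead of 2. Slamf6 fell short in IL-6 with TGFb1 when arrays were centred. With the limit at 1.5-fold in place of 2-fold, the count of higher members in IL-21 was 4, that of lower members in IL-6 with TGFb1 was 5, and that of members higher in IL-21 than in IL-6 with TGFb1 was 6. The members' median between the treated arrays was 0.11 with no brightness filter, where all 37 members enter, and that in IL-6 with TGFb1 was then -0.04 instead of -0.11. With centring the median in IL-21 was 0.10 instead of 0.03. The other counts stayed within 1.5 times their value. No paired analysis was possible because each group had 1 array. Leaving out an array was not possible for the same reason. Many probe sets, 2908 in all, had exactly equal values on the 3 arrays, and signals below the brightness minimum are poorly measured.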
